A study of Mus musculus with 28 samples.

Results

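The set described here holds 10 collagen and meningeal genes. Its collagen genes are the fibrillar Col1a1, Col1a2, Col3a1 and Col11a1 and the basement membrane Col4a1 and Col4a2. The others are the small leucine-rich proteoglycan genes Dcn, Lum and Ogn and the transporter gene Slc6a13. All 10 were chosen by gene symbol, out of the 23038 genes in the deposited tables. All 10 were found there, and all 10 passed the filter on low counts in every comparison. RNA-seq was performed on brain tissue from mice homozygous for a humanized Nova1 allele (hu/hu), in which CRISPR/Cas9 editing put a valine in place of an isoleucine of the splicing factor NOVA1 together with silent changes, and from wt/wt controls, all on the background labelled BL6, which the study's methods give as C57BL/6J. There were 6 hu/hu and 6 wt/wt libraries of embryonic midbrain (E18.5), and 4 and 4 libraries each of midbrain and of cortex after birth (P21, postnatal day 21), which makes 28. Tissue was dissected whole, so each library mixes neural tissue with vessels and whatever meninges stayed attached, and the cells that gave these transcripts were not separated. In such samples, fewer cells of a type and less RNA per cell cannot be told apart. Whether the libraries of a group came from separate litters is not stated in the sources used here.

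Collagens are built from 3 chains wound into a triple helix. Type I collagen usually combines the products of Col1a1 and Col1a2, type III collagen is made of the Col3a1 product alone, and type XI collagen, to which Col11a1 contributes, is a minor fibrillar collagen that helps to set fibril diameter. Type IV collagen, built from the Col4a1 and Col4a2 products, forms a network rather than fibrils and is the main collagen of vascular and pial basement membranes. Decorin (Dcn), lumican (Lum) and osteoglycin (Ogn) are secreted proteoglycans, and the first 2 bind collagen fibrils. Slc6a13 encodes GAT2, a GABA and taurine transporter found in leptomeningeal cells. In the brain, fibroblasts of the meninges and of the perivascular space are the best known source of the fibrillar collagens and these proteoglycans, while endothelial and mural cells add type IV collagen.

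On mm10 (GRCm38), positions were taken from RefSeq by Entrez identifier. Col1a1 (12842) lies on chromosome 11 from 94936224 to 94953042, Col1a2 (12843) on chromosome 6 from 4505618 to 4541543, Col3a1 (12825) on chromosome 1 from 45311538 to 45349706, and Col11a1 (12814) on chromosome 3 from 114030479 to 114220756. Col4a1 (12826), from 11198423 to 11312889, and Col4a2 (12827), from 11312805 to 11449287, are neighbours on chromosome 8 and are read in opposite directions. Dcn (13179), from 97479500 to 97518163, and Lum (17022), from 97565501 to 97572703, are also near each other on chromosome 10, with 47337 bases between them. Ogn (18295) lies on chromosome 13 from 49608015 to 49624501, and Slc6a13 (14412) on chromosome 6 from 121300288 to 121337721. The exon lengths used for scaling ranged from 2075 nt for Lum to 9983 nt for Col1a2.

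Promoter windows, from 250 bases before to 50 bases after an annotated start, were available for 7 of the 10 genes (RefSeq, GRCm38.p6), with 3 windows for Slc6a13. No window was used for Col1a1, Dcn and Lum. The windows of Col4a1 (chr8:11312777-11313076, minus strand) and Col4a2 (chr8:11312555-11312854, plus strand) share 78 bases. The start annotated for the Col4a1 window, at 11312826, is 21 bases from that of Col4a2, at 11312805, and lies inside the gene's outer end at 11312889 given above. Across the 12 E18.5 libraries the levels of Col4a1 and Col4a2, and those of Col1a2 and Col3a1, moved together, as described further on. The second pair passed for Pearson's r and not for rho. It no longer passed without some single libraries, hu/hu replicate 6 among them. Whether the windows bear on these correlations was not tested. For this choice of genes, the windows of Col1a2 (chr6:4505368-4505667, plus strand) and Col3a1 (chr1:45311288-45311587, plus strand) are shown beside that of Col4a2. They are written 5′ to 3′, and capitals mark every match, on either strand, to the TATA box motif (TATAAA), the CCAAT box motif (written as in its name) or the GC box motif (GGGCGG):
Col1a2: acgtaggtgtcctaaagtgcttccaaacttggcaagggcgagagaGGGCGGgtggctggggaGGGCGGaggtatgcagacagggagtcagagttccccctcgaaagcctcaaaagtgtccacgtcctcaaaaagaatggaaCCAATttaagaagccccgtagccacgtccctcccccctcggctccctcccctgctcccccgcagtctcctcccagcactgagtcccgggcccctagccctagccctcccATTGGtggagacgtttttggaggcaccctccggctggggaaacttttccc
Col3a1: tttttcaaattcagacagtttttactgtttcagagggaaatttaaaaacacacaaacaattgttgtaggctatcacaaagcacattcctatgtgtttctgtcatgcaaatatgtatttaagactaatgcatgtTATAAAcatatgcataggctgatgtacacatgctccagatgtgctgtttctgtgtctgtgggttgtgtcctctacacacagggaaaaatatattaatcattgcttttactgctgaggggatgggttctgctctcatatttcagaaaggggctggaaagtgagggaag
Col4a2: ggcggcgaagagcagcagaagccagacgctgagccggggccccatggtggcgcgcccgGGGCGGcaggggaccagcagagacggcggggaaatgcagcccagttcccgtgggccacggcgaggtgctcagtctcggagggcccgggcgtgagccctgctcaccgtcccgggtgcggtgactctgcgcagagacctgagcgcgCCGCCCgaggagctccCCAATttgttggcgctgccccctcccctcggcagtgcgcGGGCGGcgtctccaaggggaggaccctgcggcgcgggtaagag

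The Col1a2 window held CCAAT at 2 places and GGGCGG at 2, and no TATAAA. The Col3a1 window held TATAAA at 1 place and neither of the other motifs, and its bases were 37.7% G or C, against 61.0% for Col1a2 and 73.7% for Col4a2. The Col4a2 window held CCAAT at 1 place and GGGCGG at 3. Of the other windows, that of Col4a1 held CCAAT and GGGCGG at 1 place each and that of Col11a1 held them at 1 and 2 places. Ogn had only TATAAA, at 2 overlapping places on opposite strands, and the 3 windows of Slc6a13 had GGGCGG at 2 places in the first and CCAAT at 1 place in each of the others. Of all 32851 windows of 300 bases, 13.6% held TATAAA, 37.4% CCAAT and 35.7% GGGCGG on either strand. These matches describe letters in the window and are no measurement of binding.

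Total counts ranged from 18550922 to 35047494 per library at E18.5, from 25256326 to 45134998 for P21 midbrain and from 30423267 to 35643736 for P21 cortex. The lowest count of any of the 10 genes in any library was 40, for Lum. No 2 libraries were identical. Markers of the dissected tissue were present: neuronal and astrocytic marker genes were detected in every group, and no gene of the 11 marker lists was at 0 throughout a group. A choroid plexus epithelium list (Ttr, Folr1 and others) varied most between libraries of a group, from 99.7 to 3767 in summed TPM (the count of a gene per length, as a share of a fixed total) in the hu/hu libraries at E18.5 and, for P21 midbrain, from 29.8 to 2903 in hu/hu and from 60.3 to 3093 in wt/wt libraries. Its part in the results was examined only for Col1a2, through the correlations given further on, and not for the other genes.

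TPM scales counts by exon length, so levels of different genes can be set side by side as far as the annotated lengths match the transcripts present. These lengths were 4698 nt for Col1a1 and 9983 nt for Col1a2. Whether they match was not tested, so the order of genes within a set depends on them. In E18.5 midbrain the highest of the 10 was Col4a1 with a mean of 227 ± 28.5 TPM (SD, n = 12), followed by Col4a2 with 190.2 ± 26.0, Col3a1 with 171 ± 20.8, Col1a1 with 152 ± 19.7 and Col1a2 with 89.9 ± 10.1. Slc6a13 (60.5 ± 8.91), Col11a1 (59.7 ± 9.73) and Dcn (59.1 ± 8.10) had levels that differed by far less than 1 SD, and Ogn (21.4 ± 3.52) and Lum (8.88 ± 1.72) were lowest. Col4a2 lay within 1 SD of Col3a1, and Col3a1 within 1 SD of Col1a1.

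In P21 midbrain the order changed below the top. Col4a1 (74.9 ± 4.25 TPM, SD, n = 8) and Col4a2 (71.4 ± 3.22) stayed highest, followed by Col1a1 (44.5 ± 6.65), Col1a2 (34.4 ± 3.82) and Dcn (29.0 ± 3.09), while Col3a1, among the 3 highest at E18.5, stood at 22.5 ± 1.49. Col11a1 (16.8 ± 1.35) and Slc6a13 (16.6 ± 1.32) did not differ beyond their spread, and Ogn (10.5 ± 1.94) and Lum (3.02 ± 0.590) again came last. In P21 cortex the means were 61.0 ± 5.04 for Col4a1, 55.9 ± 5.32 for Col4a2, 32.3 ± 4.88 for Col1a1, 29.7 ± 2.97 for Dcn, 19.4 ± 2.36 for Col1a2, 14.5 ± 2.30 for Slc6a13, 11.8 ± 1.80 for Col3a1, 10.1 ± 1.37 for Col11a1, 6.46 ± 0.838 for Ogn and 2.55 ± 0.750 for Lum (SD, n = 8 each). Col1a1 and Dcn did not differ beyond their spread there, although Col1a1 was the higher in P21 midbrain.

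**Figure D1:**
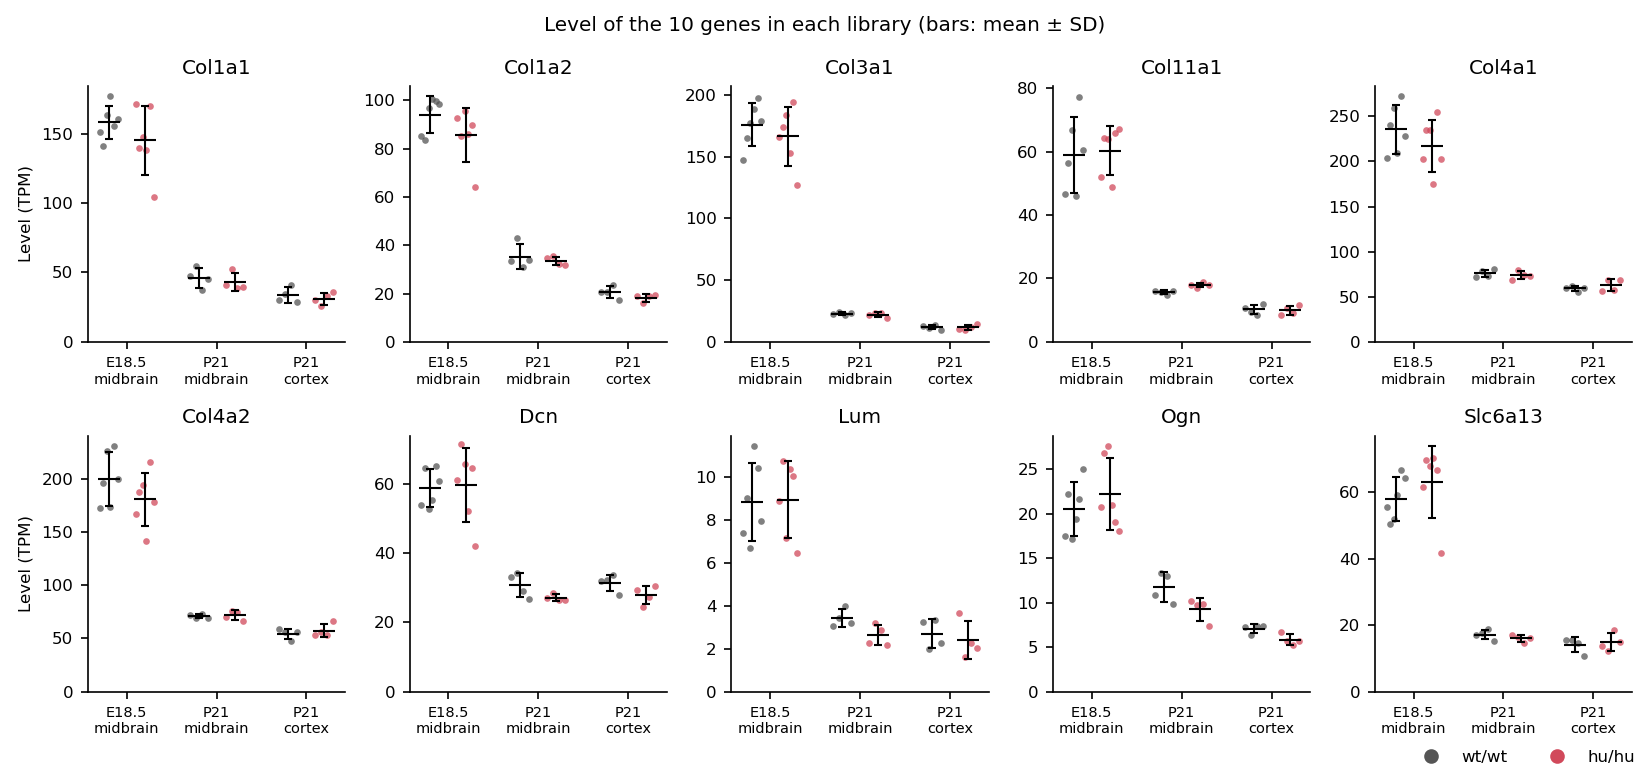
Level in TPM of each of the 10 genes in each of the 28 libraries, by age, region and genotype (grey, wt/wt; red, hu/hu), with the mean ± SD of each genotype (n = 6 at E18.5, n = 4 at P21); axes start at 0. For each gene all P21 midbrain points lie below all E18.5 points, while grey and red points overlap in every group but Col11a1 in P21 midbrain.

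The first comparison asked how the genes differed between the 2 ages in midbrain. All 10 were lower at P21. Col3a1, the type III collagen chain of distensible tissues, ranged from 127 to 198 TPM in the E18.5 libraries, with a median of 176. At P21 the 4 hu/hu midbrain libraries held 21.95, 23.4, 23.7 and 19.4 TPM and the 4 wt/wt libraries 22.2, 23.8, 22.1 and 23.6. The groups were far apart, and Col3a1 fell by 2.72 on the log2 scale (SE 0.069, 6.59-fold, edgeR adjusted p = 1.35e-21).

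Among the other fibrillar collagen genes, Col1a1 ranged from 105 to 177 TPM at E18.5 and from 37.2 to 54.8 at P21, and fell by 1.56 on the log2 scale (SE 0.086, 2.96-fold, edgeR adjusted p = 9.90e-15). Its partner Col1a2 ranged from 64.2 to 101 and from 30.9 to 43.1 TPM, and fell by 1.18 (SE 0.068, 2.27-fold). Col11a1 ranged from 46.0 to 77.3 and from 14.9 to 18.8 TPM, and fell by 1.63 (SE 0.077, 3.09-fold). The type IV chains fell by similar amounts: Col4a1, from 175 to 273 TPM at E18.5 and from 68.5 to 80.6 at P21, by 1.39 (SE 0.059, 2.62-fold), and Col4a2, from 142 to 231 and from 66.2 to 76.2, by 1.21 (SE 0.061, 2.31-fold).

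Slc6a13, at 41.8 to 70.2 TPM before birth and 14.7 to 18.9 at P21, fell by 1.66 (SE 0.083, 3.15-fold). Of the proteoglycans, Lum ranged from 6.44 to 11.4 TPM at E18.5 and from 2.18 to 3.999 at P21, and fell by 1.36 (SE 0.13, 2.56-fold). Dcn and Ogn changed by less than 2-fold. Dcn ranged from 42.0 to 71.5 and from 26.5 to 34.3 TPM and fell by 0.83 (SE 0.074, 1.77-fold), and Ogn ranged from 17.2 to 27.7 and from 7.34 to 13.4 TPM and fell by 0.82 (SE 0.094, 1.77-fold).

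A gene was called changed when p was under 0.05 and the Benjamini-Hochberg adjusted p over all genes tested was under 0.1. By this rule all 10 genes were lower at P21, beside 43.1% of the 16330 genes tested, and 8 of the 10 were lower by at least 2-fold, beside 14.7% of all genes. In TPM, all 8 P21 libraries lay below all 12 E18.5 libraries for each of the 10 genes, beside 36.8% of all genes. The median log2 fold change was −1.37 over the 10 genes and −0.02 over all genes. The 10 genes together summed to 852 to 1198 TPM at E18.5 and to 299.6 to 353 TPM in P21 midbrain. Age cannot be told apart from any difference in dissection, preparation or run between the ages.

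**Figure D2:**
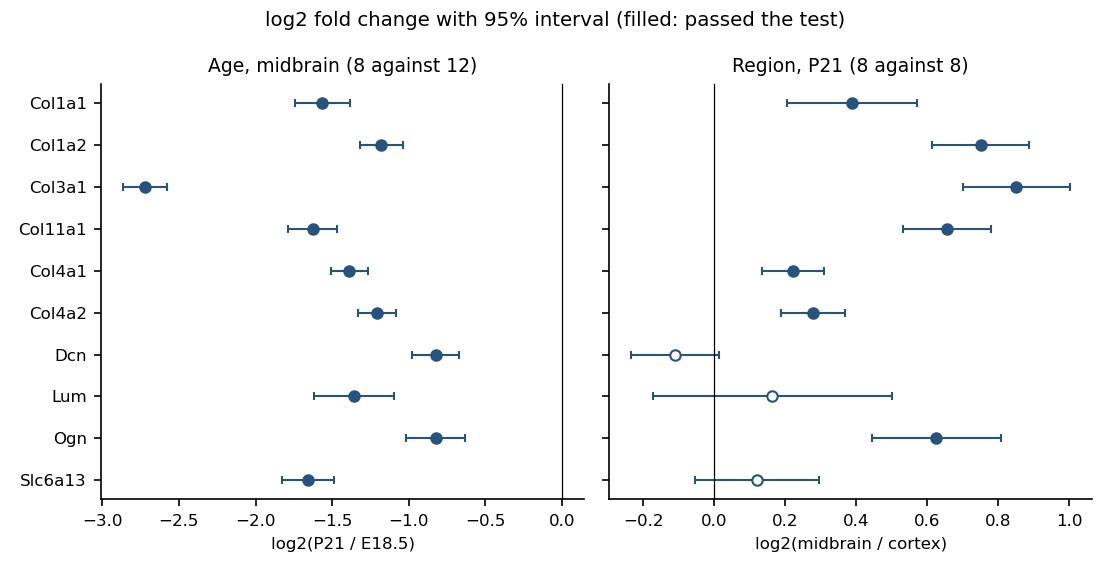
Log2 fold change of each gene with its 95% interval between ages in midbrain (left, P21 over E18.5, 8 against 12 libraries) and between regions at P21 (right, midbrain over cortex, 8 against 8); filled circles passed the test. All 10 intervals lie below 0 on the left, with Col3a1 farthest at −2.72, and 7 lie above 0 on the right; the axes differ in range.

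The second comparison set midbrain against cortex at P21. Of the 10 genes, 7 were higher in midbrain, beside 37.9% of the 16345 genes tested, and none was higher by 2-fold or more, beside 7.82%. Col3a1 was 1.80-fold higher in midbrain, with a log2 fold change of 0.85 (SE 0.073, edgeR adjusted p = 3.53e-10). Its cortex libraries held 10.8, 9.70, 12.2 and 14.6 TPM in hu/hu and 12.6, 11.3, 13.8 and 9.73 in wt/wt mice, all below the lowest midbrain library at 19.4. Col1a2 held 18.9, 15.9, 18.8 and 19.5 TPM in hu/hu cortex and 20.5, 20.8, 23.7 and 17.3 in wt/wt cortex, again all below the midbrain range. It was 1.68-fold higher in midbrain (log2 fold change 0.75, SE 0.066, edgeR adjusted p = 5.91e-10).

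Col11a1 was 1.58-fold higher in midbrain (0.66, SE 0.060) and was the third gene whose regions did not overlap, with 8.52 to 11.97 TPM in cortex. These 3 genes without overlap compare with 28.1% of all genes. Ogn was 1.54-fold higher (0.63, SE 0.087), with a lowest midbrain library at 7.34 and a highest cortex library at 7.36 TPM. Col1a1 was 1.31-fold higher (0.39, SE 0.088), and the type IV chains differed least among those that passed, Col4a2 by 1.21-fold (0.28, SE 0.044) and Col4a1 by 1.17-fold (0.22, SE 0.042).

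Dcn, Lum and Slc6a13 did not pass in the regional comparison. Dcn, the decorin gene, had a log2 fold change of −0.11 (95% interval −0.23 to 0.01, edgeR adjusted p = 0.0990, just inside 0.1 but with an unadjusted p above 0.05), Lum of 0.16 (−0.17 to 0.50) and Slc6a13 of 0.12 (−0.05 to 0.30). Leaving out the cortex library hu/hu replicate 2 (−0.14), the cortex library wt/wt replicate 4 (−0.14) or the midbrain library wt/wt replicate 2 (−0.14) took Dcn past the threshold as lower in midbrain. Without the cortex library hu/hu replicate 3, Slc6a13 passed as higher in midbrain (0.18). The median over the 10 genes was 0.33 on the log2 scale, and over all genes tested 0.00036.

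Other genes of the collagen pathway were placed beside the 10 through fixed lists. Of 32 other collagen genes tested between ages, 23 were lower and 4 higher at P21, with a median log2 fold change of −0.93. Lowest were Col2a1, the cartilage collagen (−3.08), and Col22a1 (−2.56), and highest Col20a1 (3.25) and Col25a1, a transmembrane collagen of neurons (0.78). In 25 genes of collagen synthesis and processing, 12 were lower and 8 higher (median −0.07), from the cross-linking enzyme gene Lox (−1.85) and the procollagen protease gene Adamts14 (−1.19) to the lysyl hydroxylase gene Plod1 (1.95) and Sparc, which encodes a collagen-binding matrix protein and is not particular to collagen-making cells (3.23). Of 11 other small leucine-rich proteoglycan genes, 6 were higher and 3 lower (median 0.31), from Optc (−1.69) and Bgn (−0.71) to Aspn (0.82) and Chad (2.41).

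Of 9 collagen receptor genes, 6 were lower and 3 higher at P21 (median −0.79), from the integrin genes Itga2 (−3.03) and Itga11 (−1.55) to Ddr1, a collagen-binding receptor kinase (1.15), and Lair1 (1.45). Of 11 turnover genes, 6 were lower and 5 higher (median −0.53), from the metalloproteinase genes Mmp9 (−1.78) and Mmp16 (−1.53) to the inhibitor genes Timp2 (1.17) and Timp4 (1.94). All 5 lists held genes called in either direction. Over all genes 43.1% were lower and 42.3% higher at P21, and the shares of the synthesis and turnover lists were near these.

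Between regions, where 37.9% of all genes were higher in midbrain and 37.6% lower, 17 of 33 other collagen genes were higher and 10 lower (median 0.45), from Col6a1 (−2.17) and Col19a1 (−2.16) to Col5a3 (1.36) and Col2a1 (2.74). In the synthesis list 16 of 25 were higher and 5 lower (median 0.31), from Adamts3 (−1.02) and Fkbp10 (−0.18) to Adamts2 (1.28) and Sparc (2.06). Among the other proteoglycan genes 3 of 11 were higher and 2 lower, from Epyc (−1.52) and Podn (−1.51) to Ecm2 (0.72) and Chad (2.29). Of the receptor genes 5 of 9 were higher and 2 lower, from Itga11 (−0.68) and Ddr2 (−0.26) to Ddr1 (1.02) and Itga2 (1.47), and of the turnover genes 7 of 11 were higher and 3 lower, from Timp1 (−0.56) and Mmp16 (−0.35) to Mmp15 (1.01) and Mmp9 (1.24).

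Markers of the cells that could supply these transcripts moved with age as well. Of 20 further genes of meningeal fibroblasts, 14 were lower and 4 higher at P21 (median −0.96), beside 43.1% lower and 42.3% higher over all genes. Genes of this list need not be particular to fibroblasts. Their summed level ranged from 1129 to 1485 TPM in the E18.5 libraries and from 620.3 to 924 in P21 midbrain, and no marker was at 0 throughout a group. The transcription factor genes Foxc1 (−0.76), Foxc2 (−1.15) and Tbx18 (−1.47) and the retinoic acid synthesis gene Aldh1a2 (−1.01) were among those that were lower, and the gap junction gene Gjb6 (3.24), which astrocytes also express, and Mgp (2.84) among those that were higher. The endothelial list (5 higher, 3 lower of 12, summed 316 to 438 TPM at E18.5 and 523 to 568 at P21) and the mural list (6 higher, 4 lower of 11, 318 to 435 and 339 to 420.0 TPM) did not share the fall of the type IV chains in their summed levels. Their part in the results for the 10 genes was not tested.

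The remaining lists gave, between ages, 2 higher and 4 lower of 11 choroid plexus genes, 2 and 0 of 4 blood genes, 4 and 3 of 7 cartilage and bone genes, 1 and 4 of 5 skeletal muscle genes, 3 and 2 of 5 neuronal genes, 5 and 1 of 6 astrocyte genes, 5 and 0 of 5 microglial genes and 5 and 0 of 5 oligodendrocyte genes. Oligodendrocyte genes rose most, from 88.0 to 130.2 summed TPM at E18.5 to 20360.4 to 22953 in P21 midbrain. A rise of some transcripts lowers the TPM left to others. The edgeR fold changes were scaled with TMM factors and not with TPM. Such factors take most genes as unchanged, while 13947 of 16330 genes were called between ages. How much this adds to the fall of the genes described here was not tested. Between regions, 9 of 20 meningeal fibroblast genes were higher in midbrain and 2 lower (summed 620.3 to 924 TPM against 513 to 649.6 in cortex), as were 8 and 0 of 12 endothelial, 6 and 1 of 11 mural, 2 and 2 of 11 choroid plexus, 2 and 0 of 4 blood, 5 and 2 of 9 cartilage and bone, 1 and 3 of 6 skeletal muscle, 1 and 4 of 5 neuronal, 4 and 2 of 6 astrocyte, 0 and 5 of 5 microglial and 5 and 0 of 5 oligodendrocyte genes.

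The study's main comparison was between genotypes. None of the 10 genes was called different between hu/hu and wt/wt mice in any of the 3 sets, beside 0% of all genes tested in each. The study's own edgeR comparison at the same thresholds reported Gkn3, which is not among the 10, as lower in hu/hu P21 midbrain. The fit used here did not call it, and the reason for this difference was not tested. At an unadjusted p under 0.05 the edgeR test counted 201 of 15540 genes at E18.5, 426 of 15972 for the P21 midbrain set and 450 of 15767 for cortex, and 0, 3 and 1 of the 10 genes. DESeq2 called 0, 1 and 0 of all genes and the edgeR fit with the replicate number as a block 0, 4 and 0, none of them among the 10. In E18.5 midbrain the log2 fold changes (hu/hu over wt/wt) ran from −0.15 for Col4a2 (95% interval −0.33 to 0.02) to 0.11 for Slc6a13 (−0.12 to 0.34), 5 above and 5 below 0. The intervals of all 10 genes there lay between −0.33 and 0.34. None of the 10 genes had groups that did not overlap at E18.5, beside 0.0515% of all genes.

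In P21 midbrain, Col11a1 held 18.05, 17.1, 18.8 and 17.8 TPM in hu/hu mice and 16.04, 15.6, 14.9 and 16.2 in wt/wt mice. All 4 hu/hu libraries were above all 4 wt/wt libraries, as in no other of the 10 genes in this set, and 1.92% of all genes had groups that did not overlap in either direction. The log2 fold change was 0.20 (SE 0.050, 1.15-fold, 95% interval 0.09 to 0.30, edgeR adjusted p = 1), the third smallest p in that set. In P21 cortex Col11a1 held 8.52, 10.7, 9.07 and 11.7 TPM in hu/hu and 10.8, 9.53, 8.54 and 11.97 in wt/wt mice, with full overlap and a log2 fold change of −0.03 (SE 0.10).

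Ogn held 10.2, 9.71, 9.86 and 7.34 TPM in hu/hu and 10.9, 13.4, 13.0 and 9.85 in wt/wt P21 midbrain, overlapping at the boundary. Its log2 fold change was −0.34 (SE 0.13, 95% interval −0.61 to −0.07, edgeR adjusted p = 1). In P21 cortex it held 6.73, 5.64, 5.29 and 5.73 TPM in hu/hu and 7.29, 6.32, 7.36 and 7.33 in wt/wt mice, with a log2 fold change of −0.27 (SE 0.11, 95% interval −0.51 to −0.04, edgeR adjusted p = 0.9999). Dcn was at 27.1, 28.5, 26.5 and 26.5 TPM in hu/hu and 33.2, 34.3, 29.1 and 26.7 in wt/wt P21 midbrain (−0.17, SE 0.082, 95% interval −0.35 to −0.00042, edgeR adjusted p = 1). For Ogn and Dcn the hu/hu mean was below the wt/wt mean in both regions at P21 and not at E18.5, and none of these differences passed the adjustment.

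Same-numbered hu/hu and wt/wt libraries deviated together, so the genotypes were also compared within pairs. At E18.5 Col4a2 held 166.7, 187.5, 194.1, 141.6, 215.4 and 177.8 TPM in hu/hu replicates 1 to 6 and 172.2, 196.3, 226.2, 173.2, 231.2 and 199.9 in the wt/wt libraries of the same number. Col4a2 and Col4a1 were lower in hu/hu in 6 of 6 pairs, and 3.22% of all genes differed in the same direction in every pair. With the replicate number as a block their log2 fold changes were −0.15 (SE 0.033) and −0.12 (SE 0.032), against SEs of 0.082 and 0.077 without it, and neither passed (edgeR adjusted p = 0.928 for both). These neighbouring genes varied together at E18.5 and are not separate evidence.

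In the P21 midbrain set Ogn, Dcn and Lum were lower and Col11a1 higher in hu/hu in 4 of 4 pairs, beside 12.1% of all genes in either direction. Across the libraries of that set, both genotypes together, Pearson's r ran from 0.47 to 0.79 among Ogn, Dcn and Lum. Between these genes and Col11a1 it ran from −0.79 to −0.64. None of these correlations passed adjustment. The 4 genes cannot be counted as separate evidence. With the block the edgeR adjusted p was 0.763 for Ogn (−0.34, SE 0.091) and for Col11a1 (0.20, SE 0.051), and 0.999 for Dcn (−0.17, SE 0.068) and for Lum (−0.37, SE 0.17). For P21 cortex only Ogn was lower in 4 of 4 pairs, beside 13.6% of all genes, with a blocked log2 fold change of −0.27 (SE 0.11, edgeR adjusted p = 0.832).

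The other genes lay closer to 0 or had wide intervals. Lum, the gene with the fewest counts, had log2 fold changes of −0.37 in P21 midbrain (95% interval −0.75 to 0.02) and −0.18 in P21 cortex (−0.72 to 0.36). Col1a1, Col1a2 and Col3a1 were between −0.10 and −0.05 in P21 midbrain and between −0.17 and −0.01 in P21 cortex, and the type IV chains between −0.03 and 0.09 in both. No gene of the 10 had groups that did not overlap in P21 cortex, beside 2.02% of all genes. The genotype difference itself did not pass as different between ages or between regions for any of the 10, beside 0% of all genes in both edgeR tests of interaction (303 of 16330 and 373 of 16345 genes at an unadjusted p under 0.05). DESeq2 called none for either interaction. The smallest interaction p was that of Ogn between ages (−0.44, SE 0.18, edgeR adjusted p = 0.9999), and that of Col11a1 between regions was 0.23 (SE 0.12, edgeR adjusted p = 0.9999).

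**Figure D3:**
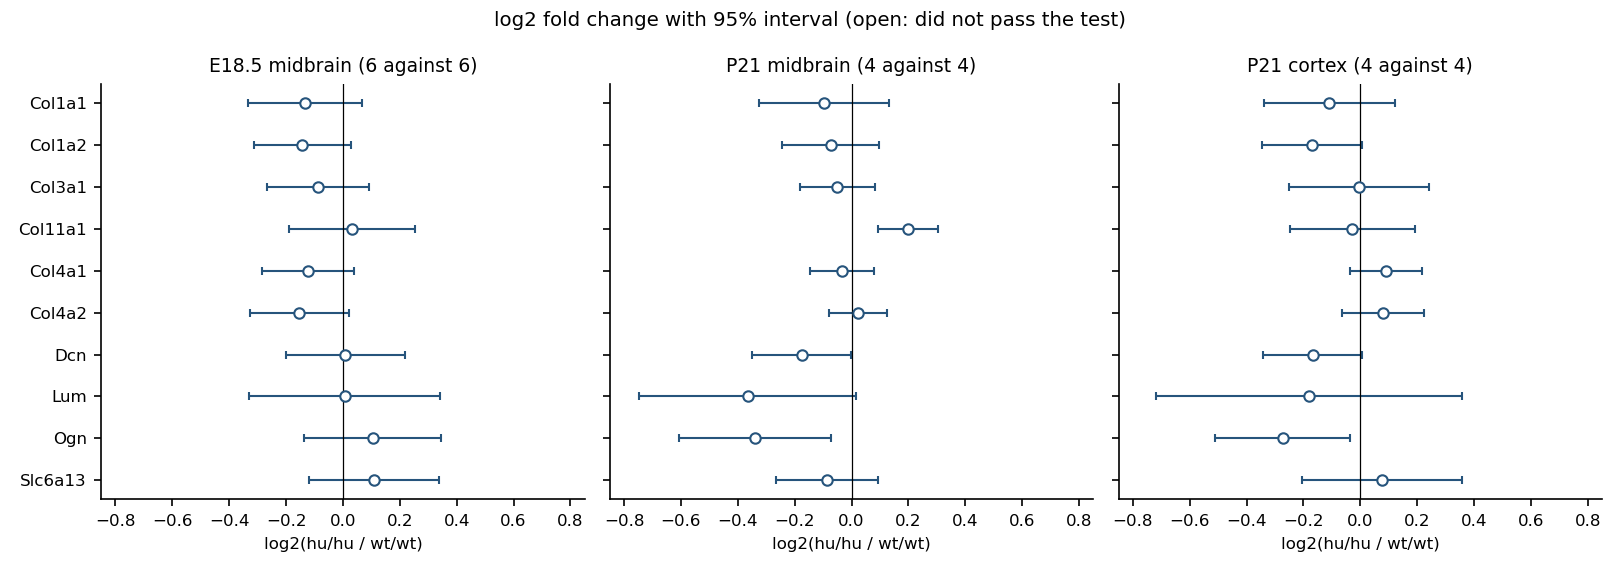
Log2 fold change (hu/hu over wt/wt) of each gene with its 95% interval in E18.5 midbrain (6 against 6 libraries), P21 midbrain (4 against 4) and P21 cortex (4 against 4); open circles did not pass the test. No gene passed; Col11a1 in P21 midbrain (0.20) and Ogn in both P21 sets (−0.34 and −0.27) have intervals that exclude 0 without adjustment, as does Dcn in P21 midbrain (−0.17).

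The ratio of the 2 chains of a collagen type was taken within each library, where any factor common to both genes cancels. The size of a ratio depends on the annotated exon lengths, which were the same for every library. Per length, the library ratios of Col1a1 to Col1a2 averaged 1.69 ± 0.109 at E18.5 (SD, n = 12), 1.29 ± 0.110 in P21 midbrain (SD, n = 8) and 1.66 ± 0.114 in P21 cortex (SD, n = 8). The P21 midbrain libraries ranged from 1.19 to 1.49, below all E18.5 libraries at 1.54 to 1.89, and overlapped the cortex libraries, at 1.46 to 1.84, only at the edge. The log2 ratio was lower in P21 than in E18.5 midbrain by 0.39 (difference −0.39, exact permutation test, two-sided, p = 7.94e-06, adjusted p = 7.94e-05) and lower in midbrain than in cortex at P21 (difference −0.36, exact permutation p = 0.000311, adjusted p = 0.00104). The fall of Col1a1 with age was thus larger than that of Col1a2, and its excess in midbrain over cortex smaller.

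The ratio of Col4a1 to Col4a2 averaged 1.19 ± 0.0367 at E18.5, 1.05 ± 0.0707 for P21 midbrain and 1.09 ± 0.0652 for cortex. It was above 1 in all 12 E18.5 libraries, from 1.14 to 1.25, and between 0.975 and 1.16 in P21 midbrain. The log2 ratio was lower at P21 (difference −0.18, exact permutation p = 5.56e-05, adjusted p = 0.000278) and did not differ detectably between regions (difference −0.06, exact permutation p = 0.220, adjusted p = 0.498). Between genotypes, none of the 6 tests of either ratio passed, with differences from −0.05 to 0.06 and exact permutation p-values from 0.249 to 0.957. In this exact test 4 against 4 libraries can reach no p below 0.0286. All 10 tests of ratios were adjusted together.

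**Figure D4:**
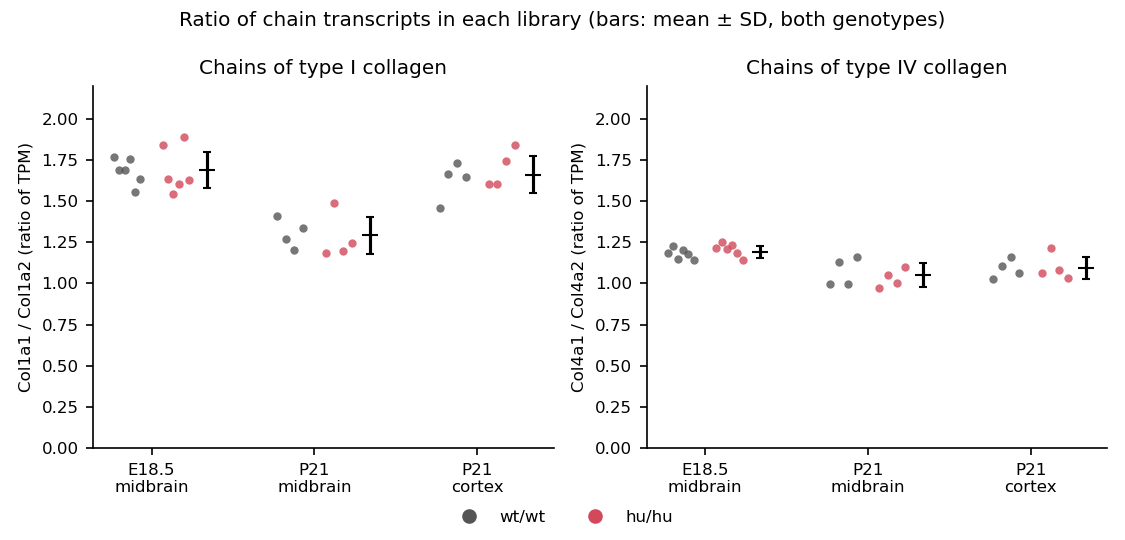
Ratio of TPM of Col1a1 to Col1a2 (left) and of Col4a1 to Col4a2 (right) in each library by age, region and genotype (grey, wt/wt; red, hu/hu), with the mean ± SD over both genotypes; axes start at 0. The type I ratio is near 1.7 at E18.5 and in P21 cortex and near 1.3 in P21 midbrain, and the type IV ratio is near 1.2 at E18.5 and closer to 1 at P21.

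Covariation was then examined across single libraries, within each set so that age and region could not create it. Pearson's r and Spearman's rho were computed on log2(TPM + 0.1) for all 45 pairs of the 10 genes in each set and tested by permutation over libraries, with adjustment over all pairs of the 3 sets together. At an adjusted p under 0.05 for r, 3 pairs passed at E18.5, 1 among P21 midbrain and 1 among cortex libraries, and the median r of the 45 pairs was 0.38, 0.26 and 0.13. No such counts or medians were computed over pairs of all genes. These values therefore cannot be read as particular to the 10 genes. Libraries with the same replicate number deviated together, so the permutation test treats them as more independent than they were.

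The chains of type I collagen varied together. Col1a1 and Col1a2 had r = 0.89 at E18.5 (rho 0.73, permutation p = 0.00108 for r and 0.00983 for rho, adjusted 0.0335 and 0.171, n = 12), which became 0.58 without the 2 libraries farthest from the median. In P21 midbrain r was 0.83 (rho 0.88, exact permutation p = 0.00124 and 0.00724, adjusted 0.0335 and 0.171, n = 8, 0.72 without the 2 farthest) and in P21 cortex 0.89 (rho 0.79, exact permutation p = 0.00496 and 0.0279, adjusted 0.0849 and 0.251, n = 8, 0.54 without the 2 farthest). Col1a1 and Col3a1 had r = 0.78 at E18.5 (rho 0.61, permutation p = 0.00549 and 0.0401, adjusted 0.0849 and 0.301, n = 12), 0.48 in P21 midbrain (rho 0.45, exact permutation p = 0.230 and 0.268, adjusted 0.472 and 0.669, n = 8) and 0.81 in P21 cortex (rho 0.81, exact permutation p = 0.0139 and 0.0218, adjusted 0.128 and 0.226, n = 8). Without the 2 farthest libraries these became 0.41, 0.22 and 0.70.

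The type IV chains gave the tightest pair of the E18.5 set. Col4a1 and Col4a2 had r = 0.98 there (rho 0.93, permutation p = 1e-05 and 8e-05, adjusted 0.00135 and 0.0108, n = 12, 0.95 without the 2 farthest), where 1e-05 is the smallest p that 100000 resamples can give. In P21 cortex r was 0.79 (rho 0.90, exact permutation p = 0.0117 and 0.00456, adjusted 0.125 and 0.154, n = 8, 0.83 without the 2 farthest) and in P21 midbrain 0.16 (rho 0.14, exact permutation p = 0.700 and 0.752, adjusted 0.851 and 0.951, n = 8, −0.02 without the 2 farthest). In P21 midbrain both genes spanned a narrow range, from 68.5 to 80.6 and from 66.2 to 76.2 TPM. Whether the correlations differ between sets was not tested.

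The type I chain Col1a2 was also set against the type IV chain Col4a1 and the type XI chain Col11a1. With Col4a1, r was 0.38 at E18.5 (rho 0.28, permutation p = 0.227 and 0.375, adjusted 0.472 and 0.814, n = 12), 0.39 in P21 midbrain (rho 0.33, exact permutation p = 0.361 and 0.428, adjusted 0.608 and 0.814, n = 8) and −0.50 in P21 cortex (rho −0.24, exact permutation p = 0.210 and 0.582, adjusted 0.472 and 0.914, n = 8), and became 0.47, 0.23 and 0.32 without the 2 farthest. With Col11a1, r was −0.06 at E18.5 (rho −0.05, permutation p = 0.873 and 0.886, adjusted 0.959 and 0.988, n = 12), −0.23 in P21 midbrain (rho 0, exact permutation p = 0.627 and 1, adjusted 0.806 and 1, n = 8) and −0.48 in P21 cortex (rho −0.31, exact permutation p = 0.227 and 0.462, adjusted 0.472 and 0.843, n = 8), and became 0.62, −0.38 and −0.23 without the 2 farthest. The E18.5 value for Col11a1 thus turned from near 0 to positive when 2 libraries were left out. None of these relations passed, which with 8 or 12 libraries does not show that covariation is absent.

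With the meningeal transporter gene Slc6a13, Col1a2 had r = 0.63 at E18.5 (rho 0.20, permutation p = 0.0352 and 0.546, adjusted 0.198 and 0.898, n = 12), 0.20 in P21 midbrain (rho 0.12, exact permutation p = 0.619 and 0.793, adjusted 0.804 and 0.951, n = 8) and 0.53 in P21 cortex (rho 0.48, exact permutation p = 0.167 and 0.243, adjusted 0.420 and 0.619, n = 8). Without the 2 farthest libraries these became 0.16, 0.58 and 0.62. At E18.5 the same pair had r = 0.84 after centring on genotype means and 0.86 over the 6 differences within a replicate number, so its size depended on the libraries and the scale used. Dcn and Lum had r = 0.50 at E18.5 (rho 0.41, permutation p = 0.0916 and 0.194, adjusted 0.318 and 0.596, n = 12), 0.47 in P21 midbrain (rho 0.62, exact permutation p = 0.233 and 0.115, adjusted 0.472 and 0.457, n = 8) and 0.59 in P21 cortex (rho 0.33, exact permutation p = 0.128 and 0.428, adjusted 0.367 and 0.814, n = 8), and became 0.10, 0.70 and 0.04 without the 2 farthest. No relation of this proteoglycan pair passed.

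Of the pairs not fixed for full report, 2 passed for r. Col1a2 and Col3a1 had r = 0.86 at E18.5 (rho 0.78, permutation p = 0.00091 and 0.00432, adjusted 0.0335 and 0.154, n = 12, 0.66 without the 2 farthest), and Col1a2 and Dcn had r = 0.94 in P21 cortex (rho 0.98, exact permutation p = 0.000570 and 0.000397, adjusted 0.0335 and 0.0268, n = 8, 0.87 without the 2 farthest). The latter pair had r of 0.57 (E18.5) and 0.64 (P21 midbrain) elsewhere, which did not pass. These pairs were named after their values were seen.

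By kind of gene, the 3 pairs among Col1a1, Col1a2 and Col3a1 had r from 0.78 to 0.89 at E18.5, from 0.48 to 0.83 for P21 midbrain and from 0.74 to 0.89 for cortex. The 6 pairs of these fibrillar genes with type IV chains ran from 0.26 to 0.66, from −0.12 to 0.59 and from −0.50 to 0.15, and their 3 pairs with Slc6a13 from 0.51 to 0.64, from −0.12 to 0.20 and from 0.53 to 0.66. Col11a1, itself a fibrillar collagen gene, had r from −0.23 to 0.27, from −0.29 to −0.19 and from −0.48 to −0.14 with the other 3 fibrillar genes. With the type IV chains it had r of 0.75 and 0.77 at E18.5, −0.27 and −0.0028 for P21 midbrain, and 0.66 and 0.76 for cortex. With all libraries included, none of the pairs with Col11a1 passed the adjustment.

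**Figure D5:**
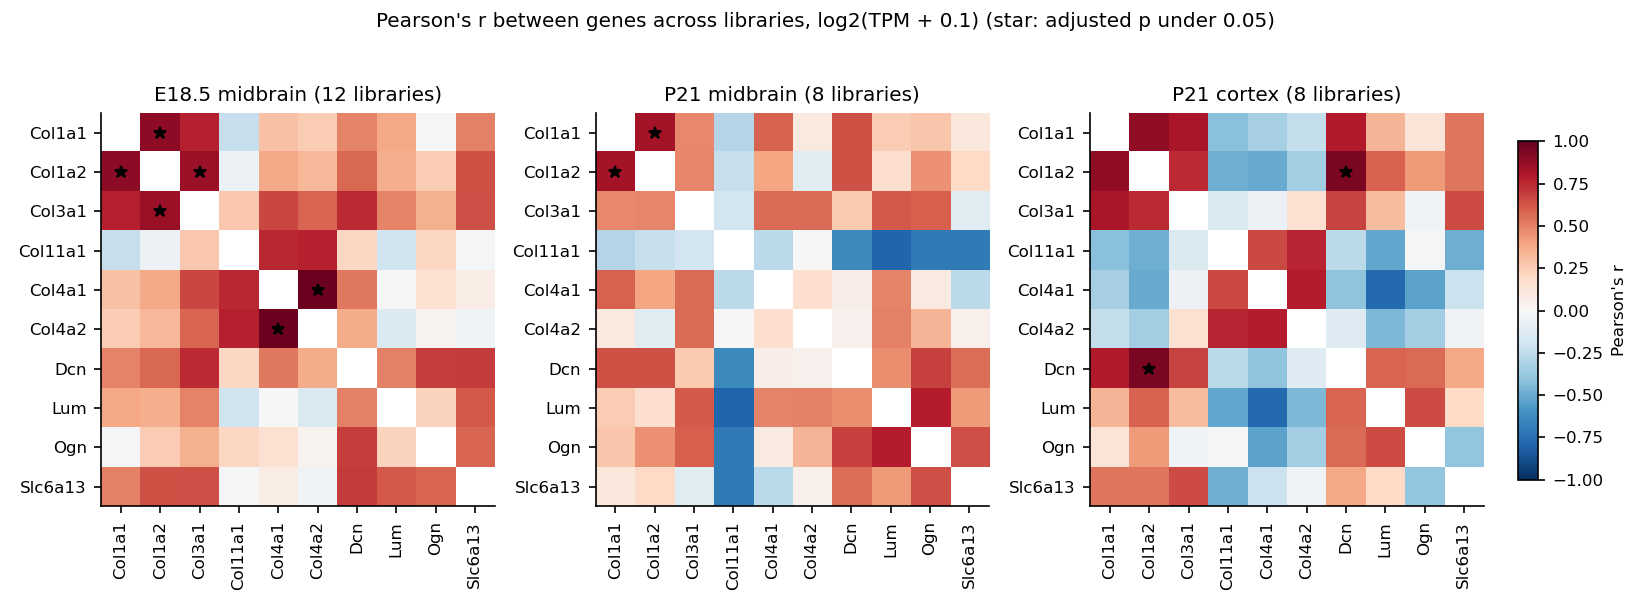
Pearson's r between each pair of the 10 genes across the libraries of each set (12, 8 and 8 libraries), on log2(TPM + 0.1); red is positive, blue negative, and stars mark an adjusted p under 0.05. Col1a1, Col1a2 and Col3a1 form a positive block in each set, Col4a1 and Col4a2 are at 0.98 at E18.5, and Col11a1 is nearer to type IV than to type I chains at E18.5 and in P21 cortex.

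Part of this covariation came with single libraries. In the E18.5 library hu/hu replicate 6, 9 of the 10 genes were below the mean of their group, by a median of 0.39 on the log2 scale, and Col1a1, Col1a2, Col3a1, Dcn, Lum and Slc6a13 had their lowest E18.5 level there, while Col11a1 (67.3 TPM) had its highest hu/hu level. This library also had the largest total count of the E18.5 set. In the wt/wt libraries at E18.5, replicate 1 had all 10 genes below the group mean and replicate 5 had 9 above it. Without hu/hu replicate 6 the number of pairs that passed at E18.5 was again 3 and the median r was 0.26, but only Col4a1 with Col4a2 (r = 0.98) was in both sets of 3. Col1a1 with Col1a2 and Col1a2 with Col3a1 no longer passed, and Col11a1 with Col4a1 (r = 0.87, permutation, adjusted p = 0.0270, n = 11) and with Col4a2 (r = 0.84, permutation, adjusted p = 0.0335, n = 11) did. The number that passed fell to 1 without the E18.5 library hu/hu replicate 4, wt/wt replicate 1 or wt/wt replicate 4. In P21 midbrain no pair passed without hu/hu replicate 2, 3 or 4 or wt/wt replicate 2, 3 or 4. In P21 cortex no pair passed without hu/hu replicate 4 or wt/wt replicate 2, 2 passed without wt/wt replicate 4 and 3 without wt/wt replicate 1. With 7 libraries the smallest possible exact p is larger than with 8.

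Beside these, Col1a2 was set against the summed level of the 11 marker lists in each set, 33 relations in all. None passed adjustment (smallest adjusted p 0.311 for r by permutation). The largest r was that with the meningeal fibroblast list at E18.5 (0.78, rho 0.48, permutation p = 0.00943 and 0.123, adjusted 0.311 and 0.581, n = 12, 0.45 without the 2 farthest), and the same list had r of −0.37 for P21 midbrain and 0.56 for cortex. With the choroid plexus list r was 0.04, −0.34 and −0.32, with the endothelial list 0.25, −0.01 and −0.26, and with the mural list 0.42, 0.31 and 0.45.

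The genes with the most similar pattern were ranked by r over all 28 libraries after subtracting the mean of each of the 6 groups, among 14315 genes with a mean of at least 1 TPM in each set. For Col1a2, Col1a1 ranked 1 (r = 0.87), Col3a1 2 (0.77), Slc6a13 13 (0.68) and Dcn 14 (0.67), while Lum ranked 332 (0.38), Ogn 533 (0.34), Col4a1 3332 (0.14) and Col11a1 11955 (−0.18). Outside the 10, the most similar were Anxa1 (0.76), Fmod, the fibromodulin gene (0.76), Thbd (0.72), Aebp1 (0.70), the type VI collagen gene Col6a2 (0.70), Ptgds, a prostaglandin D2 synthase of the leptomeninges and choroid plexus (0.70), Aldh1a2 (0.69), Islr (0.69), Col22a1 (0.69) and Mir92b (0.68).

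For Col4a1 the most similar genes were of other kinds: Kif1c, a kinesin gene (0.90), Iqce (0.89), Dvl2, a Wnt signalling gene (0.89), the cytolinker gene Plec (0.89) and Notch1 (0.89), and Col4a2 ranked 16 (0.87). For Col11a1 they were Lrrc45 (0.88), the fibril-associated collagen gene Col16a1 (0.87), Matk (0.87), 1700071M16Rik (0.87) and Pla2g7 (0.87), with Col4a2 at rank 39 (0.83) and Col4a1 at 265 (0.76). For Col4a1, an r of 0.14, that of Col1a1, ranked only 7500 of 14315, so values above it were common among genes. These correlations share libraries, depth and the totals by which TPM is scaled, and they describe these 28 libraries.

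The spread between libraries of 1 genotype was compared with that of all genes at a mean of at least 1 TPM. At E18.5 the within-genotype SD of the 10 genes on the log2 scale ran from 0.17 for Col1a2 to 0.30 for Lum, all above the median of 0.16 over 15454 genes. In P21 midbrain it ran from 0.056 for Col11a1 (15.2% of genes had a smaller SD) to 0.22 for Col1a1, with a median over genes of 0.10. In P21 cortex all 10 were again above the median of 0.10, from 0.12 for Col4a1 to 0.42 for Lum.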

How the data were processed

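Libraries were made by the authors from Trizol-extracted, polyadenylated RNA and sequenced as paired 125 nt reads. The authors aligned the reads to mm10 with OLego 1.1.7 and counted them per gene with Quantas 1.0.9; the annotation version and use of strand are not given in the sources used here, so overlapping genes such as Col4a1 and Col4a2 are uncertain at their shared ends. The authors deposited an expected count (not whole for 751 to 2715 genes per library), an exon length and an RPKM value for each of 23038 genes. The deposited RPKM values follow from counts, lengths and totals and were used only to check this. Of the Entrez identifiers, 22959 matched RefSeq. Cerebellum libraries were not analysed here.

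TPM was derived from counts before rounding, divided by exon length. Rounded counts were tested with edgeR 4.0.16 in R 4.3.3 (glmQLFit, glmQLFTest, TMM factors, filterByExpr, all genes, two-sided), with DESeq2 1.42.0 as an alternative. Genotypes were compared within each set, ages over the 20 midbrain libraries, and regions over the 16 P21 libraries. A gene was called at p under 0.05 and adjusted p under 0.1. Correlations and chain ratios were tested by permutation (Python 3.11.15, scipy 1.17.1). Precision is limited by 4 to 6 libraries per group: the median SE of a genotype log2 fold change over the 10 genes was 0.097 at E18.5, 0.081 for P21 midbrain and 0.11 for cortex. P-values measure the spread between these libraries, which may be partly technical.

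What the replicate numbers mark is not stated in the sources used here. Deviations of same-numbered hu/hu and wt/wt libraries correlated at 0.17 to 0.39 (E18.5), 0.20 to 0.23 (P21 midbrain) and 0.17 to 0.25 (P21 cortex). The study reports that its RNA-seq data held male and female pairs in equal numbers. Sex was not part of any test here, and its part in the spread between libraries was not tested. The block changed no call among the 10 genes. Counts of pairs by direction were added after the data were seen. Named non-member genes are those with the 2 highest and 2 lowest fold changes of each related list and those most similar to Col1a2, Col4a1 and Col11a1; a few fibroblast markers were named after their values were seen. The genes, the pathway and marker lists and the rules were chosen with earlier results of these data known. Code was tested on simulated counts.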

Additional observations from a re-analysis of the deposited data

Results flagged for a closer look

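Within each group of 4 or 6 libraries, the highest and lowest TPM of each of the 10 genes was compared with its nearest neighbour by Dixon's criterion at the 95% level. Of 60 groups, 3 held a value farther from the others than the criterion allows, and chance flags about 1 in 20 groups. Col1a2 in the E18.5 midbrain library hu/hu replicate 6 was at 64.2 TPM, with the next lowest hu/hu library at 85.4. Slc6a13 in the same library was at 41.8 TPM, with the next lowest at 61.7. Ogn in the P21 cortex library wt/wt replicate 2 was at 6.32 TPM, with the next lowest at 7.30. No difference between ages or regions in the effect of genotype passed its test for any of the 10 genes.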

How the results depend on the processing

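The counts of genes called among the 10 (10 with age, 7 between regions, 0 in each genotype and interaction test) were the same with RLE factors, an adjusted p under 0.05, no filter, a minimum of 10 counts per library, DESeq2 and the replicate block, and, for genotype, with all 28 libraries in 1 fit. Leaving out each library in turn gave 10 for age, 7 to 8 for region and 0 for the others. The replicate block changed no call among the 10 genes; it turned the genotype log2 fold change of Dcn at E18.5, which was 0.01, to −0.0036. Deviations of same-numbered P21 midbrain and cortex libraries correlated at −0.20 to −0.10, below the median of 0.10 for other pairs. For P21 and E18.5 midbrain they correlated at −0.15 to 0.15, against a median of −0.07. Same-numbered libraries thus did not deviate together there. Whether midbrain and cortex came from the same mice is not stated in the sources used here. With the block, the region and age comparisons gave 7 and 10 genes.

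For covariation, centring on genotype means moved the number of pairs past the threshold to 5 at E18.5 and 0 for P21 midbrain, and differences within the replicate number, as a replicate block, gave 3 at E18.5 over 6 differences; the cause was not tested. Leaving out each library gave 1 to 3 pairs at E18.5, 0 to 1 for P21 midbrain and 0 to 3 for cortex. None of the relations of Col1a2 with marker lists passed with a pseudocount of 1 either. The differences in chain ratios with age, and that of type I between regions, kept their direction and side of the threshold under every setting run.

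Directions that changed when 1 library was left out were all of differences that had not passed. At E18.5 these genotype log2 fold changes ranged from −0.023 to 0.12 for Col11a1, −0.046 to 0.090 for Dcn and −0.072 to 0.10 for Lum. In P21 midbrain the ranges were −0.22 to 0.0014 for Col1a1, −0.13 to 0.042 for Col1a2, −0.088 to 0.011 for Col3a1, −0.076 to 0.0062 for Col4a1 and −0.012 to 0.061 for Col4a2. In P21 cortex they were −0.19 to 0.012 for Col1a1, −0.11 to 0.086 for Col3a1, −0.10 to 0.052 for Col11a1 and −0.049 to 0.16 for Slc6a13. The genotype difference in the log2 ratio of Col1a1 to Col1a2 ranged from −0.030 to 0.029 at E18.5 and from −0.11 to 0.0027 in P21 midbrain, and that of Col4a1 to Col4a2 from −0.041 to 0.040 in P21 cortex. Depth limits Lum most, whose lowest library held 40 counts.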
